A study of Mus musculus with 8 samples.

Results

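The integrin and laminin genes were taken by their symbols, as the integrin alpha genes with a number or v, the integrin beta genes and the laminin alpha, beta and gamma chain genes. The rule found 31 genes, 12 integrin alpha, 8 integrin beta and 11 laminin chain genes, among 27179 entries of the expression table. They were measured in C2C12 myoblasts, an immortalized mouse muscle precursor line, on dishes coated with type 1 rat tail collagen. Cells in growth medium with 10% fetal bovine serum were taken at 50% confluence (GM), and cells in medium with 2% horse serum for 3 days had first passed 90% confluence (3d DM). Density and medium therefore changed together and cannot be told apart. Each state has 2 input libraries of poly(A) RNA, which give expression, and 2 libraries of RNA immunoprecipitated (IP) with an antibody to m6A, the methylation of adenosine in mRNA. The labels do not say whether the 2 libraries of a state came from separate cultures. The p-values rest only on the spread between these libraries, taken for expression as a trend over all genes. That spread may be technical.

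Integrins are receptors of 1 alpha and 1 beta chain that tie the extracellular matrix to the actin cytoskeleton. Laminins are trimers of an alpha, a beta and a gamma chain and form the sheet of the basement membrane. In muscle, integrin alpha 7 beta 1 and dystroglycan hold the fiber to merosin, the laminin whose alpha chain is encoded by *Lama2*.

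Stretches of the mRNAs that carried m6A enrichment are shown around GGACT, a common form of the sequence in which adenosine is methylated. Of 12 peaks that touched coding sequence in all 4 lists, 5 held GGACT in the bases covered in every list, and the 3 shown are those where a window of 25 bases lay whole within 1 coding exon. The peaks of *Itga5* and *Itga3*, which had higher folds and also held GGACT, gave no such window. The GGACT is in capitals and the strand is that of the mRNA. Coordinates are mm10. The *Itgb5* window lies at chr16:33948794-33948818 on the plus strand, the *Lamc1* window at chr1:153230726-153230750 on the minus strand and the *Lamb1* window at chr12:31318522-31318546 on the plus strand, each within 1 coding exon.
Itgb5: ggcgtgccttGGACTtcctggacca
Lamc1: tgacccctgtGGACTctgaggccct
Lamb1: gagagaccgtGGACTctgtagagaa

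The states were checked with marker genes. All 6 myotube markers were higher in 3d DM and all 4 proliferation markers were higher in GM. The summed level of the myotube markers was 4930 in GM 1, 1115 in GM 2, 88846 in 3d DM 1 and 127255 in 3d DM 2, so the GM libraries differed among themselves. The summed levels ranged from 11.4 to 27.5 for 5 leukocyte markers, from 0.0 to 10.4 for 4 endothelial markers, from 9.1 to 25.3 for 4 Schwann cell markers and from 85.8 to 214.7 for 4 epithelial markers, where *Krt14* gave most. The 4 fibroblast markers summed to 542.9, 58.3, 478.0 and 758.9 in GM 1, GM 2, 3d DM 1 and 3d DM 2, with *Dcn* at 429.9, 17.1, 409.1 and 684.9. The part of these markers in the results below was not tested. *Ptprc*, *Pecam1* and *Epcam*, which define leukocytes, endothelium and epithelium, stood at 2.2 or lower in every library. In these bulk samples, fewer cells of a type and less RNA per cell cannot be told apart. Entry 100861531 of the table took 24.4% of GM 1, 33.2% of GM 2, 41.3% of 3d DM 1 and 25.6% of 3d DM 2. Its part in the differences of scale given below was not tested. The median log2 fold change (3d DM minus GM) of all genes tested was -0.22 and came to -0.02 after median-of-ratios rescaling. Fold changes should be read against that shift. The log2 factors of this rescaling were 0.23 in GM 1, -0.02 in GM 2, -0.35 in 3d DM 1 and 0.15 in 3d DM 2. Differences between libraries of 1 state therefore hold a difference in scale as well.

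All 31 genes had a row in the expression table and 21 passed the filter on low values. Of these, 5 were higher in 3d DM, *Itga7*, *Itga10*, *Itga11*, *Itgb5* and *Itgb6*, beside 7.01% of all genes tested. The 2 genes higher in GM were *Itgb7* and *Lamb1*, beside 9.96% of all genes tested. The other 14 did not pass the test (limma, adjusted p under 0.05). The median log2 fold change of the 21 was 0.37. *Itga11* passed the filter only through 3d DM and *Itgb7* only through GM, so both had to differ. When 3 libraries had to pass the filter, 19 genes were tested, of which 4 were higher in 3d DM and 0 in GM, with *Lamb1* at an adjusted p of 0.0546. Both 3d DM values lay above both GM values for 9 of the 21 genes (16.8% of all genes tested) and below them for 6 (37.0% of all genes tested). Standard errors here come from the trend of variance with intensity over all genes, so they do not measure the replicate spread of a single gene. With 1 library left out, fewer of these genes passed in either direction, as did fewer of all genes. The lone library of a state then has no spread of its own, so a lost call does not describe that gene alone. Without a 3d DM library, the trend also had less weight for every gene. Whichever library was left out, the log2 fold changes of the called genes kept their sign. They ran from 0.93 to 1.77 in *Itga7*, 1.24 to 2.33 in *Itga10* and 3.83 to 4.4 in *Itga11*. The range was 0.85 to 1.55 in *Itgb5*, 2.08 to 2.73 in *Itgb6*, -6.51 to -5.97 in *Itgb7* and -1.44 to -0.82 in *Lamb1*.

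**Figure D1:**
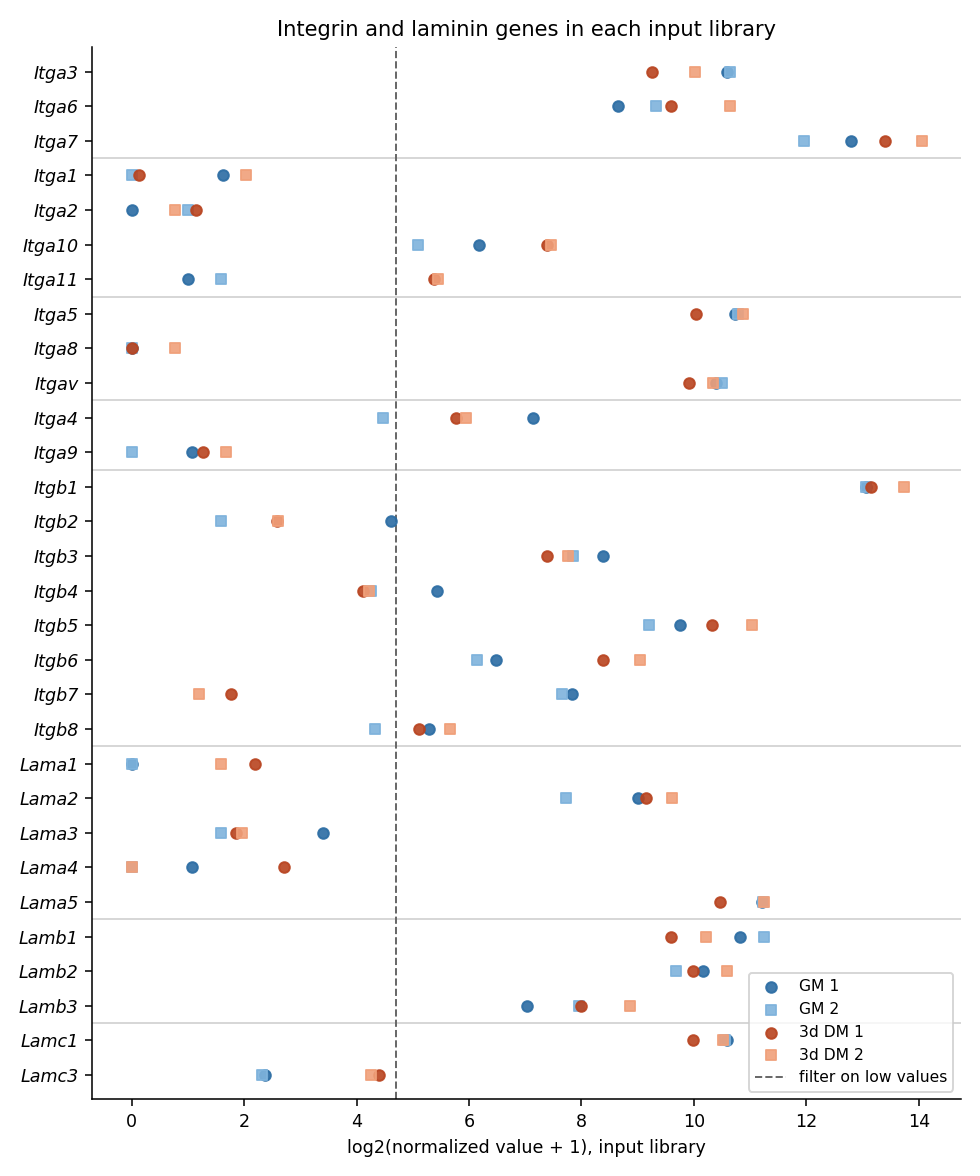
Level of integrin and laminin genes in each of the 4 input libraries, as log2 of the normalized value plus 1, with lines between the groups of genes and a dashed line at the filter on low values. *Itgb1* and *Itga7* lie farthest to the right, *Itgb7* has both GM points far to the right of both 3d DM points, and 10 genes do not pass the filter.

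The laminin-binding integrin alpha chains are encoded by *Itga3*, *Itga6* and *Itga7*, and they moved in different directions. *Itga7* (Entrez 16404, chr10:128933421-128958286) encodes the main laminin receptor alpha chain of skeletal muscle. Its normalized value was 7099 in GM 1, 3960 in GM 2, 10795 in 3d DM 1 and 16957 in 3d DM 2. The groups did not overlap, and within GM it was higher in GM 1, the library with higher sums of both the myotube and the fibroblast markers. *Itga7* was 2.55-fold higher in 3d DM (log2 fold change 1.35, SE 0.40, limma adjusted p = 0.00679). This call was lost without GM 2 (adjusted p = 0.377), without 3d DM 1 (0.138) and without 3d DM 2 (0.215).

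*Itga6* (Entrez 16403, chr2:71786886-71858427), whose chain pairs with beta 1 or beta 4, stood at 401.3, 643.2, 769.5 and 1601 in GM 1, GM 2, 3d DM 1 and 3d DM 2. The groups did not overlap but the gene did not pass the test (log2 fold change 1.13, SE 0.43, limma adjusted p = 0.0544), which it did after median-of-ratios rescaling (adjusted p = 0.0445). *Itga3* (Entrez 16400, chr11:95044475-95076844), whose chain binds laminins of the alpha 3 and alpha 5 type, stood at 1542, 1588, 607.7 and 1037. Both GM values were above both 3d DM values, at a log2 fold change of -0.98 (SE 0.43, limma adjusted p = 0.102) that passed the test after median-of-ratios rescaling (adjusted p = 0.039).

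Since these values depend on the scaling of a library, the genes were also compared within a library, as a share of the summed value per kb of exon. *Itga7* made up 71.3% and 55% of the 3 laminin-binding alpha chains in GM against 84.9% and 82.2% in 3d DM. *Itga3* made up 23.4% and 33.4% in GM against 7.23% and 7.61% in 3d DM. These shares of *Itga7* and *Itga3* did not overlap between the states, while the share of *Itga6* did, at 5.27% and 11.7% in GM against 7.92% and 10.2% in 3d DM. Per kb, *Itga7* was 3.04 and 1.65 times *Itga3* in GM against 11.7 and 10.8 times *Itga3* in 3d DM. The length of a gene was that of all its annotated exons joined, so the level of a share or ratio depends on that choice. No test was run on these shares.

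Of the 4 genes for collagen-binding alpha chains, *Itga10* and *Itga11* passed the filter and were higher in 3d DM, while *Itga1* and *Itga2* stood at 3.1 or lower in every library. *Itga10* (Entrez 213119, chr3:96645584-96664519), known from cartilage, stood at 71.7, 33.1, 166.0 and 175.0 in GM 1, GM 2, 3d DM 1 and 3d DM 2. Both 3d DM values were more than double the higher GM value, and *Itga10* rose by 1.78 on the log2 scale (SE 0.52, limma adjusted p = 0.0055). The call was lost without GM 2 (adjusted p = 0.467), without 3d DM 1 (0.23) and without 3d DM 2 (0.157). *Itga11* (Entrez 319480, chr9:62677855-62783979), the receptor chain for fibrillar collagen of mesenchymal cells, stood at 1.0, 2.0, 40.6 and 42.6. It was near the bottom of the table in both GM libraries, and the log2 fold change of 4.11 (SE 0.78) depends on the pseudocount, with 4.76 at a pseudocount of 0.1 and 3.05 at 4. The *Itga11* call was lost without 3d DM 1 (adjusted p = 0.0684) and without 3d DM 2 (0.053).

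The RGD-binding alpha chains recognize an arginine-glycine-aspartate stretch in fibronectin or vitronectin. *Itga5*, the fibronectin receptor chain, stood at 1702, 1759, 1048 and 1871 in GM 1, GM 2, 3d DM 1 and 3d DM 2, with overlapping groups (log2 fold change -0.30, SE 0.42). *Itgav*, the partner chain of several beta chains, stood at 1347, 1441, 967.1 and 1297 (log2 fold change -0.31, SE 0.42). Neither passed the test, and *Itga8* stood at 0.7 or lower in every library. Of the 12 alpha genes, *Itga5* made up 21.3% and 27.1% of the summed value per kb in GM against 12% and 13.3% in 3d DM, and *Itgav* 8.24% and 10.9% in GM against 5.4% and 4.49% in 3d DM. Both shares were lower in both 3d DM libraries, where *Itga7* took 68.1% and 66.3%. Of the chains that bind VCAM-1 and fibronectin, *Itga4* stood at 139.4, 21.1, 53.5 and 60.4, with both 3d DM values between the GM values, and *Itga9* at 2.2 or lower.

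Of the 8 beta genes, *Itgb5* and *Itgb6* were higher in 3d DM, *Itgb7* was higher in GM, *Itgb1*, *Itgb3* and *Itgb8* did not pass the test, and *Itgb2* and *Itgb4* did not pass the filter. *Itgb1* (Entrez 16412, chr8:128685654-128733579), the common partner of most alpha chains, stood at 8539, 8595, 9100 and 13657 in GM 1, GM 2, 3d DM 1 and 3d DM 2. In these values 3d DM 2 alone stood apart (log2 fold change 0.38, SE 0.40, limma adjusted p = 0.628), but the 3d DM libraries also differed in scale. After median-of-ratios rescaling the log2 fold change of *Itgb1* was 0.59 (limma adjusted p = 0.107). Per kb of exon, *Itgb1* was the highest of the 31 genes in every library, with values of 2036, 2049, 2170 and 3256, and *Itga7* the second with 876, 489, 1333 and 2094. This order depends on the length used, all annotated exons joined, at 8099 bp in *Itga7* and 4194 bp in *Itgb1*. A transcript that carried a peak measured 4020 nt in *Itga7* and 3815 nt in *Itgb1*. Undivided, *Itga7* was above *Itgb1* in both 3d DM libraries (10795 and 16957 against 9100 and 13657). Next in the mean over the 4 libraries were *Itga5* with 381, 394, 235 and 419 per kb and *Itgb5* with 248, 170, 369 and 601 per kb, whose values overlapped. *Lamb1* (310 and 415 per kb) and *Itga3* (288 and 297 per kb) were above *Itgb5* in both GM libraries. *Itga7* per kb was 0.431 and 0.239 of *Itgb1* in GM against 0.614 and 0.643 of *Itgb1* in 3d DM. The size of these ratios depends on the exon lengths used, but their relative change between libraries does not.

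*Itgb5* and *Itgb6* encode partners of the alpha v chain that bind vitronectin and the latent form of TGF-beta, respectively. *Itgb5* (Entrez 16419, chr16:33829665-33949338) stood at 863.2, 590.1, 1285 and 2091 in GM 1, GM 2, 3d DM 1 and 3d DM 2, and *Itgb6* (Entrez 16420, chr2:60598292-60722603) at 88.3, 69.2, 334.7 and 524.2. Neither gene's groups overlapped. *Itgb6* was 5.30-fold higher in 3d DM (log2 fold change 2.41, SE 0.48, limma adjusted p = 9.74e-06), a call lost without 3d DM 1 (adjusted p = 0.0533) and without 3d DM 2 (0.0638). *Itgb5* was 2.29-fold higher (log2 fold change 1.20, SE 0.43, limma adjusted p = 0.0325), and its call was lost whichever library was left out, at adjusted p values of 0.192, 0.652, 0.103 and 0.207 without GM 1, GM 2, 3d DM 1 and 3d DM 2. Relative to *Itgav*, *Itgb5* per kb was 1.69 and 1.08 in GM against 3.49 and 4.24 in 3d DM. *Itgb3*, the third alpha v partner here, stood at 333.4, 229.8, 166.5 and 216.8, without passing the test (log2 fold change -0.54, SE 0.47). *Itgb8*, which also pairs with alpha v, stood between 19.1 and 49.7 with overlapping groups.

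*Itgb7* (Entrez 16421, chr15:102215994-102233405) encodes the beta chain of lymphocyte homing receptors, with alpha 4 or alpha E as partner. It stood at 227.1 and 199.7 in GM 1 and GM 2 and at 2.4 and 1.3 in 3d DM 1 and 3d DM 2. The GM libraries were close to each other and far above both 3d DM libraries, with a log2 fold change of -6.24 (SE 0.65), or -6.81 at a pseudocount of 0.1 and -5.21 at 4. *Itgb7* passed the filter only through GM and so had to differ. The 5 leukocyte markers summed to 27.5 and 18.1 in GM and to 17.0 and 11.4 in 3d DM, so both GM sums were above both 3d DM sums, and their part in the *Itgb7* values was not tested. *Cd68* gave most of these sums, at 26.4, 16.1, 14.7 and 9.9 in GM 1, GM 2, 3d DM 1 and 3d DM 2, while *Ptprc* stood at 0.0, 0.0, 2.2 and 0.0. None of the 5 passed the filter. *Itgae*, the alpha E gene outside the symbol rule, stood at 6.3, 8.0, 0.0 and 0.7, and *Itgb2*, the leukocyte beta 2 chain, at 23.4, 2.0, 5.0 and 5.1.

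**Figure D2:**
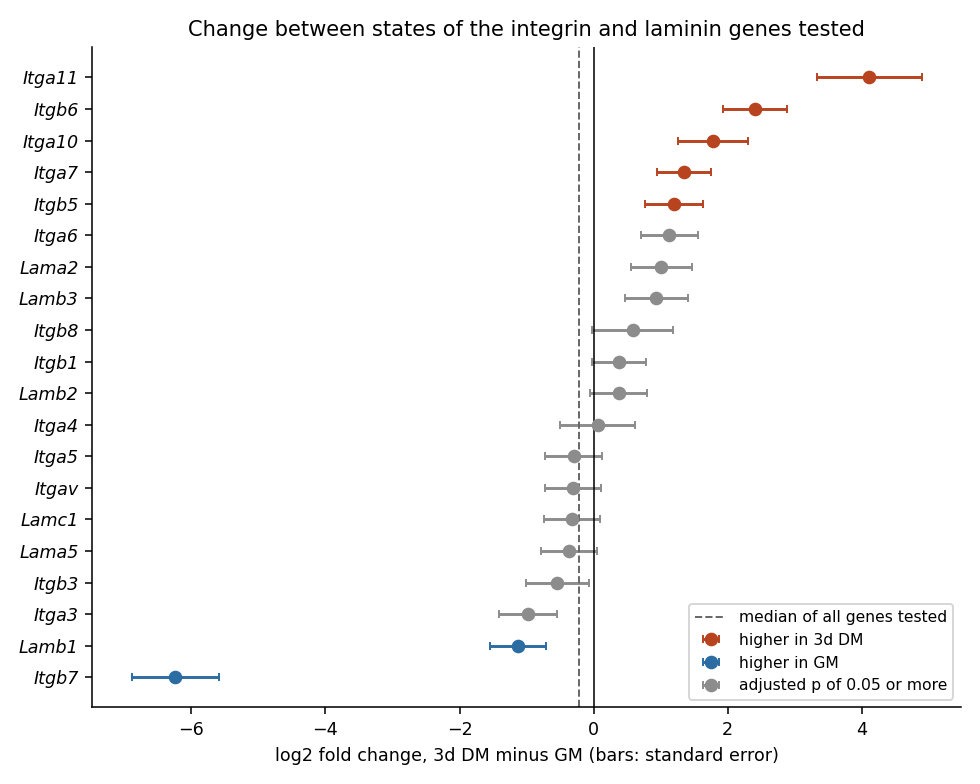
Log2 fold change (3d DM minus GM) with its standard error for integrin and laminin genes that passed the filter, colored by the result of the test, with a dashed line at the median of all genes tested (-0.22). *Itga11* (4.11) and *Itgb7* (-6.24) lie at the ends, and *Lamb1* (-1.13) is the 1 laminin gene that passed the test.

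Among the laminin chains, *Lamb1* fell by 1.13 on the log2 scale and no chain was called higher in 3d DM. *Lamb1* (Entrez 16777, chr12:31265146-31329644), the beta chain of many embryonic and vascular laminins, stood at 1812 and 2430 in GM 1 and GM 2 and at 775.2 and 1186 in 3d DM 1 and 3d DM 2. The groups did not overlap (SE 0.42, limma adjusted p = 0.0447), but the call was lost whichever library was left out, at adjusted p values of 0.261, 0.665, 0.291 and 0.0743 without GM 1, GM 2, 3d DM 1 and 3d DM 2. *Lamb2*, the beta chain of the synaptic basement membrane of muscle, stood at 1142, 822.9, 1016 and 1548, with overlapping groups (log2 fold change 0.37, SE 0.43). Within a library, *Lamb1* made up 57.1% and 67.1% of the 3 beta chains per kb in GM against 35.6% and 34.6% in 3d DM. *Lamb2* made up 37.3% and 23.6% in GM against 48.5% and 46.9% in 3d DM, so that the ratio of *Lamb1* to *Lamb2* per kb was 1.53 and 2.84 in GM against 0.735 and 0.738 in 3d DM. *Lamb3*, a chain of the main epithelial laminin, stood at 130.0, 248.8, 254.3 and 463.0, without passing the test (log2 fold change 0.93, SE 0.47).

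*Lama2* (Entrez 16773, chr10:26981285-27617191) stood at 511.3, 211.8, 565.0 and 785.2 in GM 1, GM 2, 3d DM 1 and 3d DM 2. It was higher in GM 1 than in GM 2, as were the sums of both the myotube and the fibroblast markers. The part of either in the *Lama2* values was not tested. Both 3d DM values were above both GM values, without passing the test (log2 fold change 1.01, SE 0.45, limma adjusted p = 0.107). *Lama5* (Entrez 16776, chr2:180176373-180225904), a broadly expressed laminin alpha chain, stood at 2378, 2405, 1409 and 2424. Only 3d DM 1, the library with the lowest scaling factor, was lower (log2 fold change -0.37, SE 0.42, or -0.16 after median-of-ratios rescaling). *Lama5* made up 82.5% and 92.1% of the 5 alpha chains per kb in GM against 71.5% and 76.1% in 3d DM, and *Lama2* 17.1% and 7.8% in GM against 27.6% and 23.7% in 3d DM. *Lama1*, *Lama3* and *Lama4* stood at 9.6 or lower in every library.

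*Lamc1*, the gamma chain of most laminins, stood at 1545, 1493, 1011 and 1457 in GM 1, GM 2, 3d DM 1 and 3d DM 2, without passing the test (log2 fold change -0.32, SE 0.42). *Lamc3* stayed under the filter, at 4.2 and 4.0 in GM against 20.0 and 18.2 in 3d DM.

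**Figure D3:**
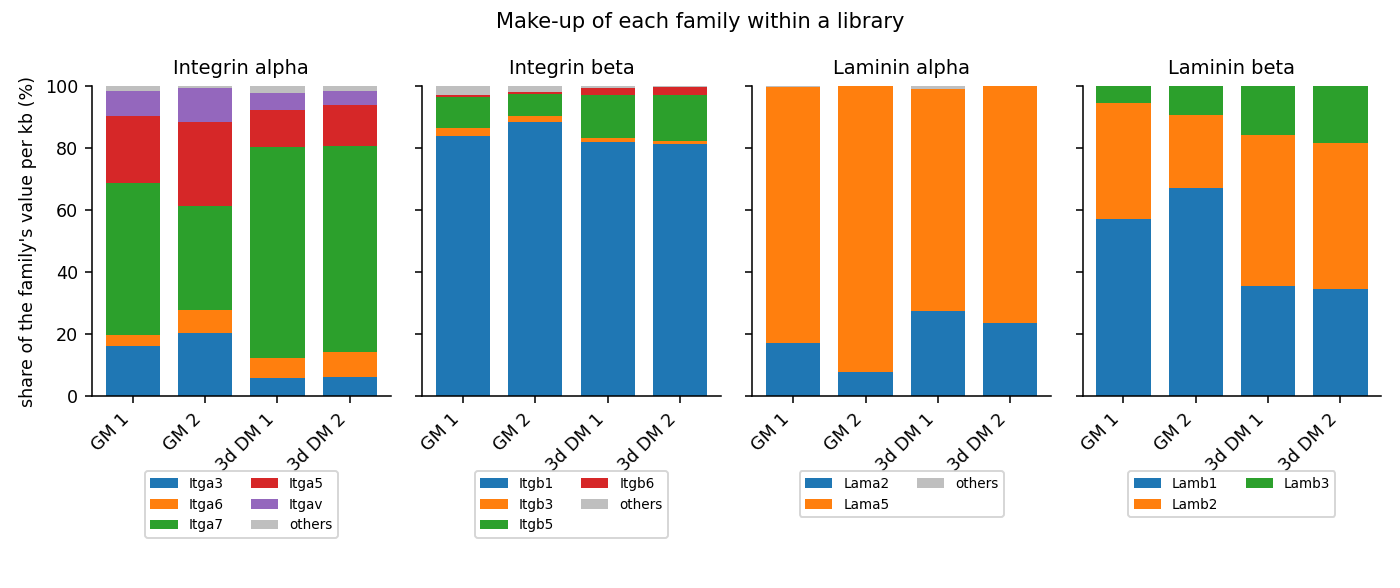
Share of each gene in the summed value per kb of exon of its family, as stacked bars from 0 to 100% for each input library, with genes that stayed under 2% in every library joined as others. *Itga7* takes a larger and *Itga3* a smaller part in both 3d DM libraries, and *Lamb1* falls from 57.1% and 67.1% to 35.6% and 34.6% of the beta chains.

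The genes that work with integrins and laminins were followed in lists chosen by function. Earlier results of these data were known at that choice, so the shares below are no independent test. Of 71 genes, 63 passed the filter, 12 were higher in 3d DM (19.0%, beside 7.01% of all genes tested) and 5 higher in GM (7.9%, beside 9.96%), and the median log2 fold change of the 63 was -0.02. With 1 library left out, fewer of these partner genes passed in either direction, as did fewer of all genes.

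Of 26 cytoplasmic partners of integrins, 23 were tested, 1 was higher in 3d DM and 1 in GM. *Itgb1bp2*, or melusin, a muscle protein that binds the tail of integrin beta 1, stood at 30.7, 11.1, 1403 and 1541 in GM 1, GM 2, 3d DM 1 and 3d DM 2. Both 3d DM libraries were far above both GM libraries (log2 fold change 6.23, SE 0.48, limma adjusted p = 2.12e-35). *Src*, a tyrosine kinase of adhesion sites, stood at 795.7, 952.3, 300.7 and 355.7 (log2 fold change -1.41, SE 0.44, limma adjusted p = 0.0115), a call lost whichever library was left out, at adjusted p values of 0.192, 0.419, 0.122 and 0.0649 without GM 1, GM 2, 3d DM 1 and 3d DM 2. The other 21, with *Tln1*, *Ilk*, *Ptk2* and *Vcl* among them, did not pass the test, and the median log2 fold change of the list was -0.34.

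Of 14 basement membrane partners of laminin, 10 were tested. The nidogens, which link laminin to type IV collagen, moved in opposite directions. *Nid1* stood at 7392 and 6375 in GM against 946.3 and 1140 in 3d DM (log2 fold change -2.72, SE 0.41, limma adjusted p = 1.67e-09), and *Nid2* at 418.2 and 514.8 in GM against 1005 and 1813 in 3d DM (log2 fold change 1.54, SE 0.43, limma adjusted p = 0.00366). The *Nid2* call was lost whichever library was left out, at adjusted p values of 0.248, 0.134, 0.0567 and 0.116 without GM 1, GM 2, 3d DM 1 and 3d DM 2. The other 8 did not pass the test.

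Of 11 other laminin receptors, all were tested, 5 were higher in 3d DM and 1 in GM, with a median log2 fold change of 1.07. Among the 5 were *Dag1*, the dystroglycan gene, the sarcoglycan genes *Sgca* and *Sgcb*, and *Bcam*, a receptor for the laminin alpha 5 chain. *Sgca* stood at 130.9, 25.1, 610.3 and 610.8 (log2 fold change 3.38) and *Bcam* at 94.0, 26.1, 350.3 and 348.1 (log2 fold change 2.79) in GM 1, GM 2, 3d DM 1 and 3d DM 2. In both genes GM 1 was above GM 2 and both 3d DM libraries were above GM 1. *Sdc3*, a heparan sulfate proteoglycan of the cell surface, stood at 176.2, 466.6, 74.0 and 160.5 and was higher in GM (log2 fold change -1.39), a call lost after median-of-ratios rescaling (adjusted p = 0.175) and without GM 2 (0.837), 3d DM 1 (0.593) or 3d DM 2 (0.142). Without 3d DM 1 or without 3d DM 2, *Sgca* (adjusted p = 0.158 and 0.108) and *Bcam* (0.166 and 0.111) did not pass the test, nor did *Bcam* without GM 2 (0.0942).

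Of 16 other ligands of integrins, 15 were tested, 5 were higher in 3d DM and 2 in GM. *Postn*, a matrix protein bound by alpha v integrins, stood at 25.0, 55.2, 591.9 and 845.2 in GM 1, GM 2, 3d DM 1 and 3d DM 2 (log2 fold change 4.21), *Col1a1*, a fibrillar collagen chain, at 136.6, 151.5, 1155 and 1533 (log2 fold change 3.20) and *Fbn1*, the fibrillin 1 gene, at 913.4, 1050, 2472 and 2759 (log2 fold change 1.41). *Spp1*, or osteopontin, stood at 23301, 19592, 3511 and 5443 (log2 fold change -2.29), and *Vcam1*, a ligand of alpha 4 integrins, at 1016, 633.2, 214.6 and 387.5 (log2 fold change -1.47). None of these 5 genes had overlapping groups, and without 1 library the adjusted p values that missed the threshold ran from 0.0712 to 0.247 for *Fbn1* and from 0.0655 to 0.455 for *Vcam1*, each lost whichever library was left out. Without 3d DM 1, *Postn* (adjusted p = 0.0501) and *Spp1* (0.0658) were lost as well. *Fn1*, the fibronectin gene, stood at 27075, 27057, 45772 and 47119, without passing the test (log2 fold change 0.78, SE 0.40). None of the 4 tetraspanin partners passed the test.

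The m6A peak lists held 18 of the 31 genes, with 14 in GM 1, 12 in GM 2, 17 in 3d DM 1 and 11 in 3d DM 2. The mean number of genes with a peak was higher by 1.0 in 3d DM than in GM (two-sided exact permutation p = 1.00, where 2 lists against 2 cannot go below 0.33). This difference came to 2.0 without GM 1, 0.0 without GM 2, -2.0 without 3d DM 1 and 4.0 without 3d DM 2. All genes together gave 7574, 7164, 7471 and 6294 genes with a peak in the same order, so 3d DM 2 held the fewest of all genes as well. The 18 genes were all among the 21 that passed the expression filter, and the 3 others of the 21 were *Itga11*, *Itgb7* and *Itgb8*. The lists hold no read numbers, so whether the depth over these 3 genes would have shown a peak is unknown.

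A peak was found in all 4 lists for 9 genes, *Itga3*, *Itga5*, *Itga6*, *Itga7*, *Itgb1*, *Itgb5*, *Lamb1*, *Lamb2* and *Lamc1*, which is 50.0% of the 18, beside 54.5% of all genes with a peak. The lowest mean expression of these 9 was 853.8, in *Itga6*. *Lama5* was in both GM lists, with folds of 3.5 and 2.47, and in neither 3d DM list, a pattern seen in 3.56% of all genes with a peak. No integrin or laminin gene was in both 3d DM lists and neither GM list, beside 2.31% of all genes with a peak. *Itgav* was in the lists of GM 1 and 3d DM 1 alone, and *Itga10*, *Itgb3* and *Itgb6* were in the list of 3d DM 1 alone.

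**Figure D4:**
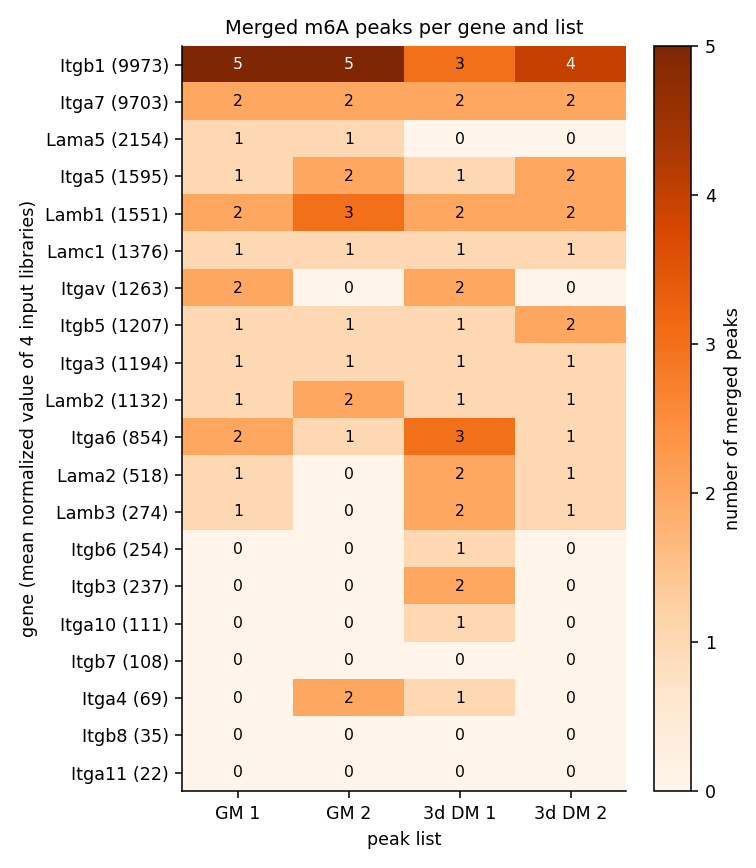
Number of merged m6A peaks in each of the 4 lists for integrin and laminin genes that passed the expression filter, ordered by their mean normalized value, which is given beside the symbol. Genes near the top have peaks in all lists, with the exceptions of *Lama5* and *Itgav*, and most genes near the bottom have peaks in 1 list or in none.

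The lines merged into 39 peaks, of which 13 were in all 4 lists and 16 in 1 list. Fold enrichment, the IP over input ratio, was compared for the 13 peaks. The peak at the end of *Itga5* had the highest mean fold of 8.66, with folds of 7.96, 7.97, 5.9 and 12.8 in GM 1, GM 2, 3d DM 1 and 3d DM 2. It was followed by *Itga3*, with 7.59, 8.09, 5.74 and 10.2. In both, the 3d DM libraries enclosed the GM libraries. *Itgb5* had folds of 4.91, 7.64, 4.03 and 6.37, *Lamc1* of 5.38, 7.11, 4.35 and 5.01, *Itga6* of 5.99, 3.67, 5.33 and 4.63 and the inner *Lamb1* peak of 4.89, 3.39, 4.1 and 3.91. Both GM folds were above both 3d DM folds in *Lamc1* and in the inner *Itga7* peak (2.26 and 2.67 against 1.51 and 2.19). The *Itgb1* peak in the 3' UTR found in all lists had the reverse order (1.82 and 1.37 against 1.92 and 1.96). How many of all peaks show such an order was not counted, so the order cannot be read as a trait of these peaks. The median log2 difference (3d DM minus GM) of all peaks found in the 4 lists was -0.11. The most abundant genes had low folds, between 1.37 and 2.68 in the 3 *Itgb1* peaks and between 1.2 and 2.67 in the 2 *Itga7* peaks. None of the 13 passed the test (limma, adjusted p = 0.998 for all, smallest unadjusted p = 0.336), with log2 differences between -0.43 and 0.33. Over all peaks in the 4 lists, 0 of 6055 passed (0.00%) with limma, and 238 had an unadjusted p under 0.05.

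**Figure D5:**
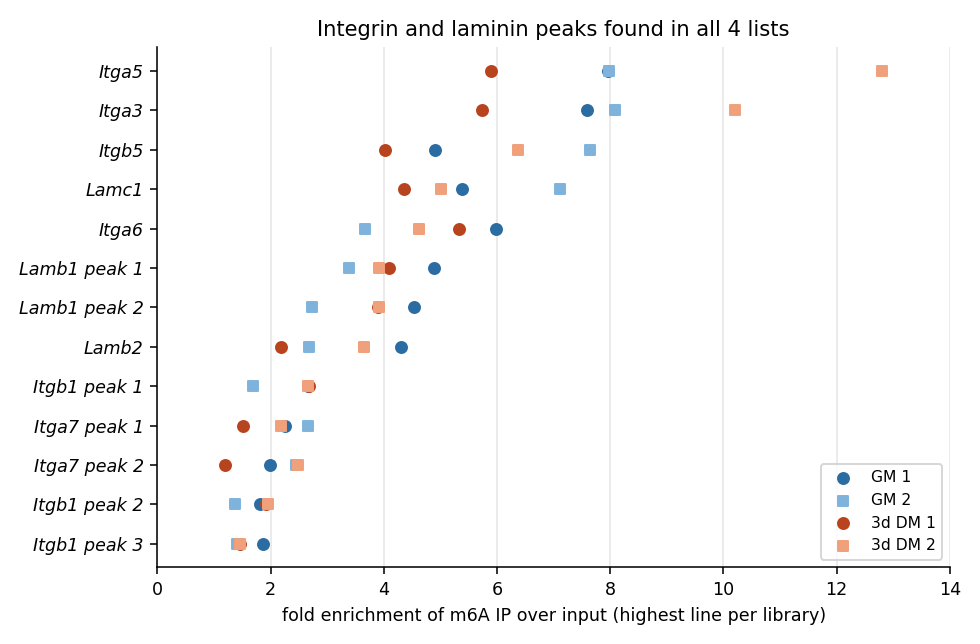
Fold enrichment of the m6A IP over its input in each of the 4 libraries for the 13 integrin and laminin peaks found in all lists, ordered by their mean, with peaks of 1 gene numbered by mean fold. The points of GM and 3d DM overlap for most peaks, and *Itga5* (12.8) and *Itga3* (10.2) have their highest fold in 3d DM 2.

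By the region labels of the lists, 46.2% of the 39 peaks lay in coding sequence alone, 28.2% reached from coding sequence into the 3' UTR and 20.5% lay in the 3' UTR alone. For all 19683 merged peaks these shares were 37.9%, 25.0% and 31.7%. The midpoint of the *Itgb5* peak was 84 to 99 nt past the end of the coding sequence in the 4 libraries, that of *Itga5* 449 to 524 nt past it and that of *Itga3* 623 to 808 nt past it. In the laminin chains the midpoints lay before the end of the coding sequence, at -505 to -251 nt in the outer *Lamb1* peak, -366 to -261 nt in *Lamb2* and -524 to -270 nt in *Lamc1*. The outer *Itga7* peak lay across the end, at -34 to 101 nt.

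The peaks of *Lamb1* and *Lamb2* near the stop codon covered exons of the same length. In both *Lamb1* and *Lamb2* the last 4 coding exons measure 142, 177, 160 and 134 bp, the last counted to the stop codon. The exons of 177 and 160 bp were covered over 100% of their length by the peaks of both genes in all 4 lists, although the exons of the 2 genes are identical at only 43.5% and 44.4% of their bases. The exon of 142 bp was covered over 95% or more of its length in all 4 lists of both genes. The last exon, of 134 bp, was covered over 100% in all 4 lists of *Lamb1* and over 50, 100, 95 and 100% in *Lamb2* in GM 1, GM 2, 3d DM 1 and 3d DM 2. *Lamb3* has exons of 142 and 177 bp at the same places, and no list had a peak on them. Its last 2 coding exons, of 154 and 134 bp, were covered over 64 and 21% in 3d DM 1 and over 0% in the other lists. *Lamb3* was lower than *Lamb1* and *Lamb2* in every input library, at 130.0, 248.8, 254.3 and 463.0 in GM 1, GM 2, 3d DM 1 and 3d DM 2. The part of this lower level in its missing peaks was not tested. In *Lamc1* the exons of 159 and 100 bp before the last were covered over 100% in all 4 lists. GGACT is in none of the last 5 coding exons of *Lamb1* or *Lamb2*.

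GGACT, read on the mRNA strand, was in 17 of the 39 peaks (43.6%), beside 34.9% of 19661 merged peaks on assembled chromosomes, with median lengths of 241 and 269 bp. There were 1.58 GGACT per kb in the integrin and laminin peaks, 1.32 per kb in all peaks and 1.07 per kb in the exons of the same genes outside peaks. GGCAT, the same letters in another order, came to 0.95, 0.76 and 0.73 per kb. Of the 12 peaks in all 4 lists that touch coding sequence, 5 held GGACT in the bases covered by all lists, those of *Itga5*, *Itga3*, *Itgb5*, *Lamc1* and the inner *Lamb1* peak. These are 5 of the 6 with the highest mean fold, with *Itga6* as the exception, and the 3 windows printed above come from them. The bases covered by all lists came to 925, 720, 428, 1228 and 214 bp in these 5, in the order named. They came to between 60 and 630 bp in the peaks without GGACT. A longer stretch holds more copies by its length alone, and a link between GGACT and fold was not tested.

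RefSeq promoter windows, 250 bases before to 50 after the start, were given for 20 of the 31 genes in 23 entries. CAGCTG, an E-box letter sequence that myogenic factors can bind and that reads alike on both strands, was in 6 of the 23 (26.1%), beside 16.3% of 32851 promoters. Genes without an entry could not be searched. Among the genes that passed the expression test and had an entry, *Itgb5* alone held CAGCTG, at chr16:33829533-33829558 (plus strand, GRCm38.p6), with the 6 letters in capitals.
Itgb5 promoter: acaagtgggtCAGCTGtgacagccac

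The annotated span of *Itga7* overlaps the long noncoding RNA gene *Gm46186* over 14461 bp, and that of *Itgb6* overlaps *Gm33436* over 25100 bp. Whether the counting used strand is not given in the sources used here, so reads of these pairs cannot be told apart.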

How the data were processed

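MeRIP-seq and RNA-seq of C2C12 cells were taken as processed files, with 2 IP and 2 input libraries per state. Per the submitters' notes and the study's methods, reads were aligned to mm10 with HISAT2 (2.1.0) and peaks were called by exomePeak for each IP against its own input. The authors' peak lists give a p-value and a fold, the ratio of IP over input RNA, for each line. The deposited expression table holds a normalized signal per gene, made by the authors with edgeR. The 4 columns were scaled to a common total, so depth is unknown and no counting error is given.

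Expression was tested with limma (3.58.1, R 4.3.3, intensity trend) on log2(value + 1), with Benjamini-Hochberg adjustment over the 11406 genes that reached 2 cpm, which is a deposited value of 25.1, in 2 or more of the 4 libraries. Peak lines of 1 gene and strand that share at least 1 bp were merged, and log2 folds of peaks in all 4 lists were tested with limma. The number of genes with a peak was tested by exact permutation of the lists (two-sided). Entrez identifiers were matched to symbols, and exon lengths taken, from RefSeq for GRCm38.p6, and coding exons from GENCODE M21. The tests were checked on simulated data with planted changes larger than most of those reported here. That check does not show how often changes of the reported size would be found. Genes were chosen by symbol, and the gene lists with earlier results of these data known. Genes of the symbol rule were counted in full, and of each partner list up to 3 genes with the largest significant change per direction were named, except for genes that are not reported here. Alternatives were other filters, pseudocounts of 0.1 and 4, a replicate block, no trend, 2 rescalings, stricter peaks and each library left out.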

Additional observations from a re-analysis of the deposited data

How the results depend on the processing

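Of the 5 genes higher in 3d DM, 3 remained with a replicate block, where *Itga7* (adjusted p = 0.0613) and *Itgb5* (0.19) were lost, and 0 to 4 when 1 library was left out. Of the 2 genes higher in GM, 0 remained when 3 libraries had to pass the filter, where *Itgb7* was not tested, 1 with the replicate block, 1 without the intensity trend and 1 when any library was left out. Of the partner genes, 7 in place of 12 were higher in 3d DM and 2 in place of 5 in GM with the replicate block, and 2 to 7 and 1 to 3 when 1 library was left out. With 1 library left out, the lone sample of a state is assumed to vary like the other state. The difference in genes with a peak ran from -2.0 to 4.0 when 1 list was left out, with 0.0 without GM 2, and was 1.0 with the replicate block, from differences of 3 and -1 within the numbers. No integrin or laminin peak was called under any alternative run, with a smallest unadjusted p of 0.067 for the median fold over lines. Over all genes, 524 were higher in 3d DM with the filter of 3 libraries, 1340 with median-of-ratios rescaling, and 101 to 679 when 1 library was left out, in place of 800. For genes higher in GM, 705 with the replicate block and 44 to 573 with 1 library left out stood in place of 1136. The cause was not tested.

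The log2 fold changes given here turned sign and belonged to genes that did not pass the test. *Itga5* ran from -0.72 to 0.11, *Itga4* from -1.28 to 1.39 and *Lama5* from -0.76 to 0.02 when 1 library was left out. Same-numbered libraries deviated together in expression (r = 0.290 across genes) and in peak folds (r = 0.131), but the labels give no shared batch and there are only 2 pairs, so the numbers were not taken as pairs.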

Other observations

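Integrin alpha genes outside the symbol rule were low. *Itga2b* stood at 12.6, 10.0, 13.4 and 29.2 in GM 1, GM 2, 3d DM 1 and 3d DM 2, *Itgam* at 0.0, 0.0, 7.7 and 9.6, and *Itgad* at 0.0, 0.0, 3.2 and 14.5. *Itgal* stood at 3.4 or lower and *Itgax* was listed at 0.0 in every library.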
